A study of Mus musculus with 12 samples.

Results

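The 35 genes described here are glycolytic enzymes, glucose and lactate transporters and a set of targets of hypoxia-inducible factor (HIF). They were listed by function, found by gene symbol and chosen with earlier results of these data known. All 35 were present among the 56884 genes counted, and all 35 were among the 17757 genes with enough counts to be tested. Together they held 1.21% to 1.504% of the counts of a library.

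Hypoxia-inducible factor is a transcription factor whose alpha subunit, encoded by Hif1a, is marked for destruction by oxygen-dependent prolyl hydroxylases when oxygen is plentiful. When oxygen is scarce the subunit persists, pairs with ARNT and raises the transcription of genes for glucose uptake, glycolysis, lactate export, acid handling and the turnover of mitochondria. Tumours often outgrow their blood supply and run glycolysis at a high rate even with oxygen, so these genes are usually strongly expressed in them.

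The tumours were grown from TS/A cells, a mouse mammary carcinoma line, mixed with cancer-associated fibroblasts, and every group carried this same mixture with a wild-type genotype label. The RT_FAP41BBL group received radiotherapy and muFAP-4-1BBL, the RT group radiotherapy alone, and the FAP41BBL group muFAP-4-1BBL alone. The control group has the treatment label None, although the series' design text speaks of a vehicle. The agent muFAP-4-1BBL is a 4-1BB agonist directed to fibroblast activation protein. Each of the 4 groups had 3 tumour libraries. The labels give no dose, interval, age or animal, and a p-value here reflects only how far these libraries scatter, which may be technical. A whole tumour was sequenced, so fewer cells of a type and less RNA per cell cannot be told apart.

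Library totals lay between 34076477 and 42067481 counts. The lowest value of a member in any library was 3.42 CPM, for Vldlr. The summed markers of fibroblasts (5189 to 11590 summed CPM, counts scaled to a common library size, over 8 genes) and of epithelial tumour cells (322 to 588 over 6 genes) were present in every library. Of the 6 epithelial genes, 1 had 0 counts in control replicate 3 and 1 had 0 counts in RT replicate 1. Skeletal muscle transcripts set the RT group apart. The 18 muscle markers summed to 7521, 7163 and 16490 CPM in the 3 RT libraries, against 69.3 to 748 CPM in control. They summed to 645 to 1193 CPM in RT_FAP41BBL and 103 to 2456 CPM in FAP41BBL. No RT library overlapped with any other library, and RT replicate 3 was the highest.

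The promoters of the members that changed are shown first, because HIF binds the core letters ACGTG or GCGTG. Windows ran from 250 bases before to 50 bases after the annotated start (RefSeq, GRCm38.p6, a different build from the counted files), read 5′ to 3′ on the gene's strand. Capitals mark ACGTG or GCGTG on either strand, so the reverse complements are capitals too. The E-box CACGTG contains ACGTG. The windows shown belong to 4 of the genes lower in irradiated tumours and, as the member higher in RT, Aldoa.
Aldoc (chr11:78322823-78323122, plus strand): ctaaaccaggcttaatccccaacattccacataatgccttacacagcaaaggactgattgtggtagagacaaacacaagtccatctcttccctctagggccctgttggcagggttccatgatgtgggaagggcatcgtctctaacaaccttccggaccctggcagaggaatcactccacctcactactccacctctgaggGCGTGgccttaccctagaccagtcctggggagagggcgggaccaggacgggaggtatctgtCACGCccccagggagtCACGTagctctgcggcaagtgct
Pdk1 (chr2:71872974-71873273, plus strand): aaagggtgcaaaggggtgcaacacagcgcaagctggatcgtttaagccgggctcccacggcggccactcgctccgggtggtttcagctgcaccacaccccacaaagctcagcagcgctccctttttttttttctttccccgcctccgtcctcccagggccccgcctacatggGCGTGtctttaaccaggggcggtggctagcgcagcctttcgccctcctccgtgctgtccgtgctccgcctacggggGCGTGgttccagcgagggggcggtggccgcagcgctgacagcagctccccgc
Car9 (chr4:43506776-43507075, plus strand): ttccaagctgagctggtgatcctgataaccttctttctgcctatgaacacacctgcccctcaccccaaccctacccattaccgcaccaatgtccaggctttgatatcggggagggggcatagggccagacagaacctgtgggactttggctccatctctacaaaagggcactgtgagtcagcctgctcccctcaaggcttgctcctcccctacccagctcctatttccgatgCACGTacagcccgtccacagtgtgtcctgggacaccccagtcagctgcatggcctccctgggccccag
Egln3 (chr12:54203825-54204124, minus strand): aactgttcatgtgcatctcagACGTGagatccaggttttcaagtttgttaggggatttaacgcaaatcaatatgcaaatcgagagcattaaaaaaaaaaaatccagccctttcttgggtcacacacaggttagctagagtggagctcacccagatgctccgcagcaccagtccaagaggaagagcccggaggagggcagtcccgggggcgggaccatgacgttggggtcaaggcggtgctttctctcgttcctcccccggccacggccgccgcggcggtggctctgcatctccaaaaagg
Aldoa (chr7:126800398-126800697, minus strand): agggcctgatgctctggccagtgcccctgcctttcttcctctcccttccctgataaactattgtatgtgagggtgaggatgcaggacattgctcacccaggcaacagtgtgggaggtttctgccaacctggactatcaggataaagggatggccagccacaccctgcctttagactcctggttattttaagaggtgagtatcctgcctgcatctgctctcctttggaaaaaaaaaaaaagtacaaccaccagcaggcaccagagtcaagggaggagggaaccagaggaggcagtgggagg
The Aldoc window held 3 matches, the Pdk1 window 2, and the Car9 and Egln3 windows 1 each. The Aldoa window, the first of 3 listed for the gene, held 0, and 2 of the 3 windows held a match. Ak4 had 2 matches in its first window. Mxi1 had 0 in the first of its 3 windows, and 2 of the 3 held a match. Of the 33 members found in the promoter table, 26 (78.8%) had a match in the first window, against 43.8% of 27025 genes, and Ldha had the most with 7. A match describes letters only, and its absence says only that these letters are not in this window.

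Levels between genes were compared per kilobase of counted exon. In control tumours glycolytic enzymes led: Pkm, the pyruvate kinase, stood at 524 ± 14.8 CPM per kb, Gapdh at 475 ± 33.5, Aldoa at 438 ± 11.2, Pgk1 at 434 ± 9.38 and Ldha, the lactate dehydrogenase, at 397 ± 14.3 (SD, n = 3 libraries). Pgk1 and Aldoa did not differ beyond their spread. Car9, the cell-surface carbonic anhydrase, stood at 90.2 ± 12.6 CPM per kb and Slc2a1, the glucose transporter GLUT1, at 46.5 ± 5.16. Hif1a itself stood at 38.3 ± 0.682 CPM per kb. The lowest were Pfkfb4 at 4.997 ± 0.319 and Vldlr, the very low density lipoprotein receptor, at 0.566 ± 0.172 CPM per kb.

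Of the 35 genes, 4 passed in each irradiated group against control, not far from the share of all genes, and most of them were lower. In RT_FAP41BBL against control 4 of 35 fell and 0 rose, beside 2.31% of all genes tested lower and 5.59% higher (edgeR quasi-likelihood test, Benjamini-Hochberg adjusted p under 0.05 over all 17757 genes). The 4 were Aldoc, Egln3, Mxi1 and Ak4. In RT against control 3 of 35 fell (Pdk1, Aldoc and Car9) and 1 rose (Aldoa), beside 3.05% of all genes lower and 6.57% higher. In FAP41BBL against control 0 of 35 passed, where 0.00563% of all genes passed. There 2 members had an unadjusted p under 0.05 with edgeR, beside 5.17% of all genes, and DESeq2 called 0. The unadjusted count was 12 of 35 in RT_FAP41BBL, beside 23.6%, and 12 of 35 in RT, beside 24.2%.

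The median log2 change of the members was -0.17 for RT_FAP41BBL, -0.09 for RT and -0.03 for FAP41BBL, each against control, beside 0.01, -0.002 and 0.009 over all genes tested. A value below 0 was found for 27 members in RT_FAP41BBL (48.6% of all genes), 21 in RT (50.2%) and 23 in FAP41BBL (47.8%). All 3 RT_FAP41BBL libraries lay below all 3 control libraries for 17 members and above them for 1, Pfkfb4, beside 18.5% and 20% of all genes. All 3 RT libraries lay below control for 10 members and above it for 3, beside 11.1% and 14.9% of all genes. All 3 FAP41BBL libraries lay below control for 4 members and above it for 0, beside 5.07% and 5.7%. These 3 comparisons share the control libraries, so their counts are not independent of each other.

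**Figure D1:**
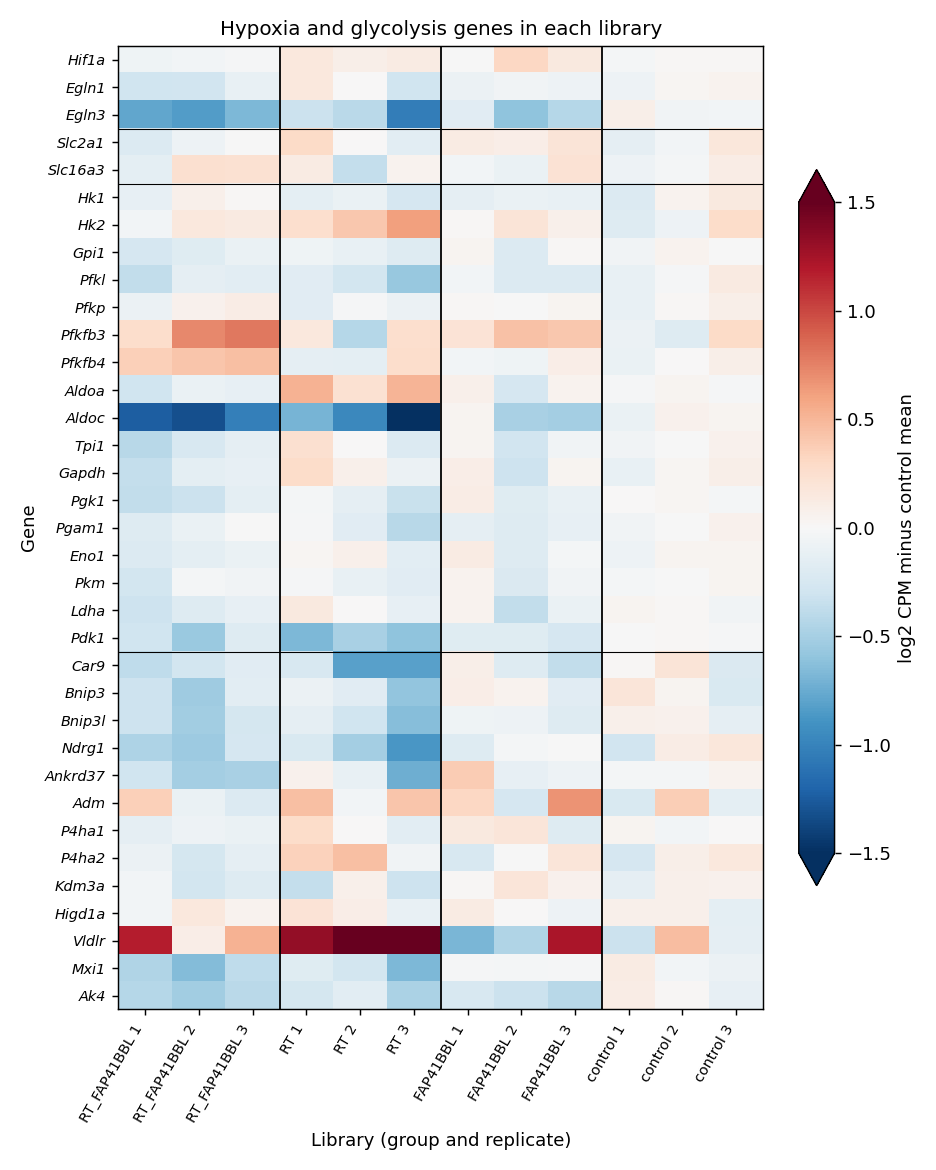
Colour gives log2 CPM minus the control mean for each of the 35 genes (down the page, by role) in each of the 12 libraries (across), with the scale ending at 1.5 in either direction. Blue cells for Aldoc, Egln3 and Mxi1 fill the RT_FAP41BBL and RT columns, Vldlr is high in the RT columns, and most glycolytic enzymes stay near 0.

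Among the regulator and its oxygen sensors, only Egln3 changed. Egln3 encodes the prolyl hydroxylase PHD3, itself a HIF target that marks the alpha subunit for destruction (ENSMUSG00000035105.6, GRCm39 chromosome 12, 54225767 to 54250646). It had 88.0, 84.6 and 94.8 CPM in RT_FAP41BBL, 122, 114 and 74.0 CPM in RT, 135, 99.3 and 113 CPM in FAP41BBL, and 161, 146 and 148 CPM in control. All 9 treated libraries lay below all 3 control libraries, with the narrowest range in RT_FAP41BBL. How many of all genes separate in that way was not counted, so this is a description only. The change against control was -0.77 ± 0.16 in RT_FAP41BBL (SE, log2, adjusted p = 0.015). The values of -0.55 ± 0.16 in RT (0.0513) and -0.39 ± 0.16 in FAP41BBL (0.939) missed the threshold with edgeR. With DESeq2, Egln3 passed in RT (0.0126). The RT_FAP41BBL call was lost without control replicate 1 or 2, or without RT_FAP41BBL replicate 2 (adjusted p up to 0.0713).

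Hif1a lay between 215 and 223 CPM in RT_FAP41BBL, 240 and 252 CPM in RT, 225 and 281 CPM in FAP41BBL, and 221 and 228 CPM in control. The RT_FAP41BBL libraries overlapped with control and lay below all RT libraries, at -0.16 ± 0.09 log2 against RT (adjusted p = 0.311). Egln1, the prolyl hydroxylase PHD2, stood at 95.6 ± 7.10, 109 ± 17.0 and 107 ± 1.38 CPM in RT_FAP41BBL, RT and FAP41BBL, and at 112 ± 5.48 CPM in control. It passed in no comparison.

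Of the transport and acid-handling genes, Car9 changed and the transporters did not pass. Car9, which hydrates carbon dioxide at the cell surface and is a widely used marker of hypoxic tumour cells (ENSMUSG00000028463.15, chromosome 4, 43506966 to 43513729), had 158, 170 and 184 CPM in RT_FAP41BBL and 175, 118 and 118 CPM in RT. It had 220, 181 and 161 CPM in FAP41BBL and 210, 236 and 178 CPM in control. The RT libraries all lay below control, RT replicate 1 only narrowly, while the RT_FAP41BBL range reached into that of control. The change was -0.60 ± 0.17 in RT (adjusted p = 0.0429) and -0.28 ± 0.17 in RT_FAP41BBL (0.347), each against control. In RT the call was lost without any of 4 libraries (control 1 or 2, RT 2 or 3), with adjusted p from 0.00846 to 0.148 over the 6 refits that leave out a library. Slc2a1 changed by -0.10 ± 0.12 in RT_FAP41BBL and 0.05 ± 0.12 in RT. Slc16a3, the lactate exporter MCT4, changed by 0.12 ± 0.14 in RT_FAP41BBL and -0.05 ± 0.15 in RT, and none of these passed.

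The 2 aldolases of the list went in opposite directions in RT. Aldolase splits fructose-1,6-bisphosphate into the triose phosphates, and Aldoc is the isoform best known from brain (ENSMUSG00000017390.16, chromosome 11, 78213794 to 78218607). Aldoc had 12.5, 11.8 and 14.5 CPM in RT_FAP41BBL, 18.3, 15.1 and 7.404 CPM in RT, 30.6, 21.1 and 20.8 CPM in FAP41BBL, and 27.6, 31.0 and 30.5 CPM in control. All 6 irradiated libraries (7.404 to 18.3 CPM) lay below all 6 others (20.8 to 31.0 CPM), which held for only 1 other member, Mxi1. How many of all genes separate in that way was not counted, so this is a description only. Aldoc fell to 0.436-fold in RT_FAP41BBL (log2 -1.20 ± 0.27, adjusted p = 0.0206) and to 0.458-fold in RT (-1.13 ± 0.27, 0.022), each against control. RT replicate 3 was the lowest library, and without it the RT change was -0.85 (adjusted p = 0.0186). The RT call was lost without control replicate 2 or 3 (adjusted p 0.0114 to 0.0649 over the 6 refits), with no low-count filter (0.0574) and with only the 2 groups in the fit (0.0596). In RT_FAP41BBL the call was lost in 5 of the 6 refits that leave out a library (adjusted p 0.0471 to 0.0894).

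Aldoa, the isoform of muscle and of most proliferating cells (ENSMUSG00000030695.17, chromosome 7, 126394406 to 126399923), had 1039, 1191 and 1172 CPM in RT_FAP41BBL and 1821, 1492 and 1808 CPM in RT. It had 1346, 1073 and 1326 CPM in FAP41BBL and 1255, 1311 and 1254 CPM in control. The RT libraries lay above all others, a separation not counted over all genes, and the RT_FAP41BBL libraries lay below control. Aldoa rose 1.34-fold in RT against control (log2 0.42 ± 0.12, adjusted p = 0.049). It was lower in RT_FAP41BBL than in RT by -0.59 ± 0.12 (adjusted p = 0.0206), the only member to pass there, beside 2.4% of all genes lower. The rise in RT was lost in 5 of the 6 refits that leave out a library (0.0381 to 0.147) and the RT_FAP41BBL difference in 4 of 6 (0.0241 to 0.091).

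**Figure D2:**
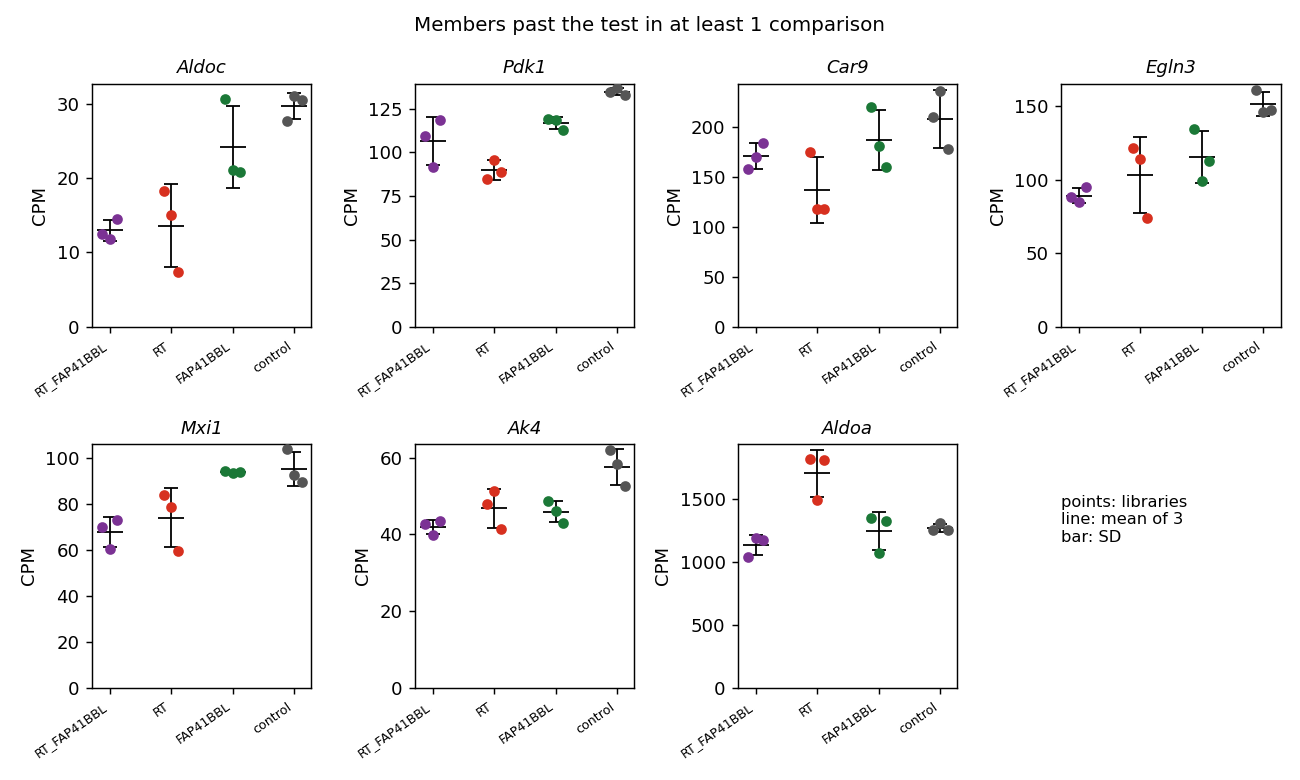
CPM (linear axes from 0) of the 7 members that passed the test in at least 1 comparison, by group, with points for the libraries, a line for the mean of 3 and bars for the SD. Aldoc and Mxi1 are lower in all 6 irradiated libraries than in the other 6, and Aldoa stands highest in the RT libraries at 1492 to 1821 CPM. How many of all genes separate as Aldoc and Mxi1 do was not counted.

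The other enzymes of upper glycolysis did not pass with edgeR. With DESeq2, Hk2 (adjusted p = 0.0353) and Pfkl (0.0423) passed in RT against control. Hk2, the inducible hexokinase that traps glucose in the cell, had 117, 135 and 131 CPM in RT_FAP41BBL, 143, 159 and 184 CPM in RT, and 105, 114 and 145 CPM in control. Its change was 0.42 ± 0.13 in RT (adjusted p = 0.0666) and 0.07 ± 0.13 in RT_FAP41BBL (0.791), each against control, and the RT range overlapped with control only at control replicate 3. Hk1, Gpi1, Pfkl, Pfkp and Tpi1 lay between -0.33 ± 0.12 (Pfkl) and 0.02 ± 0.13 (Tpi1) in RT. In RT_FAP41BBL they lay between -0.26 ± 0.13 (Tpi1) and 0.03 ± 0.09 (Pfkp). Pfkfb3 and Pfkfb4 are 2 of the enzymes that set the level of fructose-2,6-bisphosphate, the activator of phosphofructokinase, and neither passed in any comparison with edgeR. With DESeq2 both passed in RT_FAP41BBL against control (adjusted p = 0.0301 and 0.0199) and against RT (0.0378 and 0.0224). Pfkfb4 also passed there against FAP41BBL (0.0389). Pfkfb4 had 31.1, 32.5 and 33.3 CPM in RT_FAP41BBL, 22.1, 22.0 and 29.1 CPM in RT, 23.6, 23.3 and 25.99 CPM in FAP41BBL, and 22.8, 24.4 and 25.9 CPM in control. The RT_FAP41BBL libraries lay above all 9 others, a separation not counted over all genes. Its change was 0.41 ± 0.12 against control (adjusted p = 0.0504), 0.40 ± 0.12 against RT (0.0593) and 0.41 ± 0.12 against FAP41BBL (0.115). Pfkfb3 had 81.2, 111 and 117 CPM in RT_FAP41BBL, 75.5, 50.1 and 80.4 CPM in RT, 77.9, 91.1 and 89.3 CPM in FAP41BBL, and 63.2, 58.8 and 82.4 CPM in control. The RT_FAP41BBL range overlapped with control at 1 library of each, and the change of 0.60 ± 0.19 did not pass (0.0768).

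In lower glycolysis the enzymes from Gapdh to Ldha did not pass in any comparison. In RT_FAP41BBL against control all 6 were below 0, from -0.28 ± 0.12 for Pgk1, the phosphoglycerate kinase, to -0.10 ± 0.11 for Pgam1, the phosphoglycerate mutase. In RT against control they lay between -0.19 ± 0.11 (Pgam1) and 0.09 ± 0.14 (Gapdh). Pdk1, the kinase that inhibits pyruvate dehydrogenase and so keeps pyruvate out of the mitochondria, had the smallest adjusted p of all members in RT (ENSMUSG00000006494.12, chromosome 2, 71703568 to 71734202). It had 109, 91.6 and 118 CPM in RT_FAP41BBL, 84.5, 95.9 and 88.7 CPM in RT, 119, 119 and 113 CPM in FAP41BBL, and 135, 137 and 133 CPM in control. Every treated library lay below every control library, a separation not counted over all genes, and the control libraries lay close together. The change was -0.59 ± 0.10 in RT (adjusted p = 0.00397), -0.34 ± 0.10 in RT_FAP41BBL (0.0517, or 0.01 with DESeq2) and -0.21 ± 0.10 in FAP41BBL (0.98). Pdk1 kept its RT call in all 6 refits that leave out a library (adjusted p 0.00781 to 0.0181).

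Of the genes that act on mitochondria and energy charge, Mxi1 and Ak4 fell in RT_FAP41BBL. Mxi1, which encodes an antagonist of MYC (ENSMUSG00000025025.15, chromosome 19, 53298949 to 53364241), had 69.9, 60.5 and 73.2 CPM in RT_FAP41BBL, 84.2, 78.9 and 59.5 CPM in RT, 94.5, 93.6 and 93.9 CPM in FAP41BBL, and 104, 92.8 and 89.9 CPM in control. The irradiated libraries lay below all others, and the FAP41BBL libraries within the control range. The change against control was -0.49 ± 0.12 in RT_FAP41BBL (adjusted p = 0.0309) and -0.36 ± 0.12 in RT (0.0886, or 0.0416 with DESeq2). Without any 1 library the RT_FAP41BBL call was lost (0.0597 to 0.142).

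Ak4, the mitochondrial adenylate kinase (ENSMUSG00000028527.19, chromosome 4, 101276474 to 101324192), had 42.8, 40.0 and 43.4 CPM in RT_FAP41BBL, 47.8, 51.4 and 41.3 CPM in RT, 48.7, 46.2 and 43.0 CPM in FAP41BBL, and 62.1, 58.3 and 52.8 CPM in control. All 9 treated libraries lay below control, a separation not counted over all genes. The change against control was -0.46 ± 0.10 in RT_FAP41BBL (adjusted p = 0.0181), -0.30 ± 0.10 in RT (0.0845, or 0.0341 with DESeq2) and -0.33 ± 0.10 in FAP41BBL (0.738). The RT_FAP41BBL call was lost in 4 of the 6 refits (0.0297 to 0.0874). Bnip3 and Bnip3l, receptors for the removal of mitochondria, stood at -0.34 ± 0.15 and -0.36 ± 0.13 in RT_FAP41BBL and at -0.28 ± 0.15 and -0.35 ± 0.13 in RT, and neither passed with edgeR. With DESeq2, Bnip3l passed in RT_FAP41BBL against control (adjusted p = 0.043). Higd1a, a small mitochondrial protein induced by hypoxia, was at 0.06 ± 0.11 and 0.07 ± 0.11.

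The remaining HIF targets did not pass in any comparison with edgeR and differed widely in their spread. With DESeq2, Vldlr (adjusted p = 0.0016) and Ndrg1 (0.0167) passed in RT against control. Ndrg1, a stress-responsive gene, stood at 235 ± 25.01 CPM in RT_FAP41BBL and 219 ± 47.8 CPM in RT, against 315 ± 51.5 CPM in control (adjusted p = 0.132 and 0.0622). Vldlr had 12.6, 5.92 and 7.99 CPM in RT_FAP41BBL, 13.9, 17.0 and 26.8 CPM in RT, 3.42, 4.05 and 13.0 CPM in FAP41BBL, and 4.41, 7.67 and 5.03 CPM in control. Each RT library exceeded every other library, with RT replicate 3 highest, a separation not counted over all genes. The change of 1.75 ± 0.51 in RT did not pass (0.057). Adm, the gene of the vasodilator adrenomedullin, had 11.54, 8.41 and 7.83 CPM in RT_FAP41BBL, 12.3, 8.76 and 12.02 CPM in RT, 11.2, 7.58 and 14.4 CPM in FAP41BBL, and 7.69, 11.7 and 8.13 CPM in control. All groups overlapped. Ankrd37, an ankyrin repeat gene induced by HIF, had 8.97, 7.74 and 7.85 CPM in RT_FAP41BBL, 11.53, 10.2 and 6.63 CPM in RT, 14.4, 10.1 and 10.47 CPM in FAP41BBL, and 10.8, 10.8 and 11.4 CPM in control. Its RT_FAP41BBL libraries lay below control (-0.43 ± 0.20, adjusted p = 0.209). P4ha1 and P4ha2, the collagen prolyl hydroxylases, and Kdm3a, a histone demethylase, lay between -0.17 ± 0.15 and -0.10 ± 0.12 in RT_FAP41BBL.

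**Figure D3:**
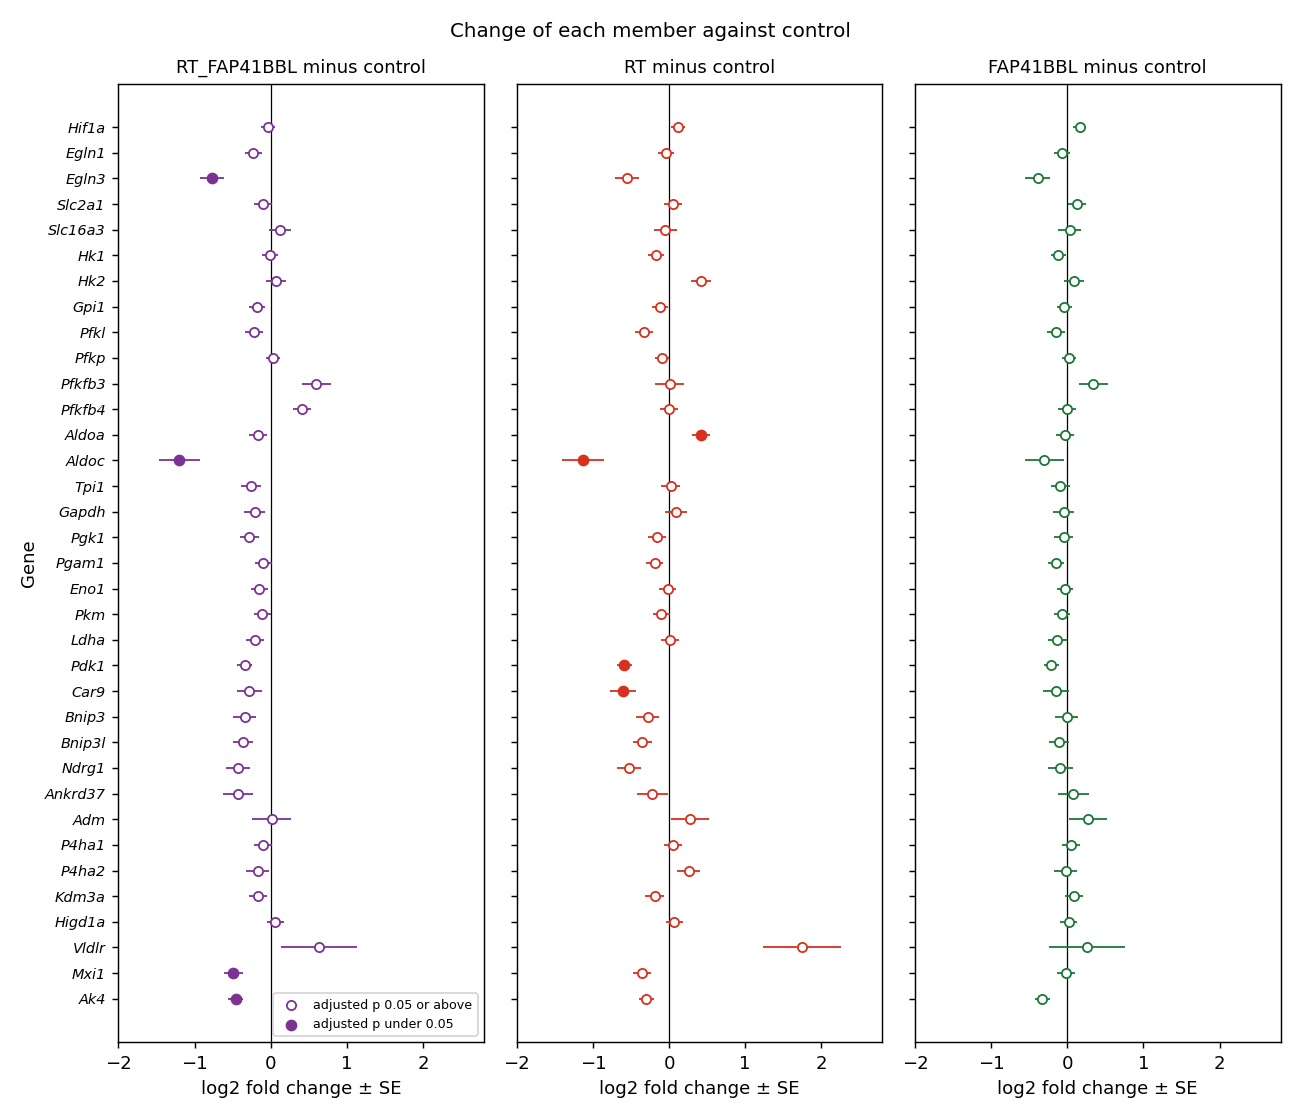
Log2 fold change ± SE of each of the 35 genes against control, for RT_FAP41BBL (left), RT (middle) and FAP41BBL (right), with filled points for an adjusted p under 0.05. Filled points are 4 in RT_FAP41BBL, 4 in RT and 0 in FAP41BBL, and 27 of 35 points lie below 0 in RT_FAP41BBL.

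The combination was also set against each single treatment. Against RT, 1 of 35 fell (Aldoa) and 0 rose, beside 2.4% and 3.36% of all genes, and the median was -0.11. All 3 RT_FAP41BBL libraries lay below RT for 7 members and above it for 2, beside 13.4% and 14.5% of all genes, and 24 members lay below 0, beside 50.3%. The unadjusted count was 7, beside 23%. Against FAP41BBL, 0 of 35 passed, beside 0.946% of all genes. There 6 members had an unadjusted p under 0.05 with edgeR, beside 13.5%, and DESeq2 called 3 (Mxi1, Aldoc and Pfkfb4), beside 774 of all genes. All 3 RT_FAP41BBL libraries lay below FAP41BBL for 10 members and above it for 1, beside 10.9% and 12.3% of all genes, and 27 members lay below 0, beside 49.9%. The changes of the 3 were -0.47 ± 0.12 for Mxi1 (edgeR adjusted p = 0.096), -0.90 ± 0.27 for Aldoc (0.142) and 0.41 ± 0.12 for Pfkfb4 (0.115). The interaction sets the radiotherapy change in agonist-treated tumours against that in tumours without the agonist. It passed for 0 of 35, beside 0.152% of all genes, and 20 members lay below 0, beside 49.9%. For it 5 members had an unadjusted p under 0.05 with edgeR, beside 14.1% of all genes (Pdk1 0.45 ± 0.14, Aldoa -0.56 ± 0.17, Pfkfb4 0.41 ± 0.16, Hif1a -0.32 ± 0.13 and Hk2 -0.43 ± 0.18). Their adjusted p ran from 0.174 to 0.317, and DESeq2 called 1, Aldoa (0.0277), beside 633 of all genes. A difference between the responses to radiotherapy with and without the agonist was thus not detectable for single members with edgeR.

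Other glycolysis genes, a list of 28 isoforms and side-branch enzymes of which 25 were tested, were counted in the same fit. In RT 9 rose and 0 fell against control, beside 6.57% and 3.05% of all genes, with a median of 0.31. The difference from the members was not tested. The 9 include isoforms that skeletal muscle uses. Pfkm, the muscle phosphofructokinase, had 161, 153 and 241 CPM in RT against 94.5, 82.3 and 71.2 CPM in control (1.16 ± 0.18, adjusted p = 0.00313). Eno3, the muscle enolase, had 432, 382 and 469 CPM in RT against 256, 210 and 187 CPM in control (0.97 ± 0.16, 0.00372). Slc2a4, the insulin-responsive glucose transporter GLUT4, changed by 4.21 ± 0.70 (0.00587) and Pgam2, the muscle phosphoglycerate mutase, by 4.52 ± 1.09 (0.0339). Ldhb, the heart-type lactate dehydrogenase, rose by 1.45 ± 0.33 (0.0162). Tigar, a p53-induced phosphatase that lowers fructose-2,6-bisphosphate, rose by 0.79 ± 0.11 in RT (0.0015) and 0.38 ± 0.11 in RT_FAP41BBL (0.0454). Leaving out any 1 library ended the RT_FAP41BBL call of Tigar (0.0655 to 0.174) and the RT call of Pgam2 (0.052 to 0.0987), and the Ldhb call was lost in 3 of 6 refits (0.0161 to 0.0761). The Pgam2 call was also lost with no low-count filter (0.0777). In RT_FAP41BBL against RT 5 of the 25 fell, beside 2.4% of all genes, among them Pfkm (-1.40 ± 0.18, 0.00377) and Eno3 (-1.26 ± 0.16, 0.0036). Slc16a1, the lactate transporter MCT1, passed in no comparison with edgeR and stood at 183 CPM in RT_FAP41BBL, 257 CPM in RT, 197 CPM in FAP41BBL and 206 CPM in control. With DESeq2, Slc16a1 passed in RT_FAP41BBL against RT (adjusted p = 0.00818).

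The muscle transcripts named above moved with these isoforms and, in part, with Aldoa. Of the 18 muscle markers 9 rose in RT against control, beside 6.57% of all genes, with a median of 4.34. With the mean log2 CPM of the muscle markers as a term in the fit, 0 of 35 members passed in RT against control. Only 3 of all genes passed in that fit, so the 0 is not particular to the members. Aldoa was then at 0.22 (adjusted p = 0.783), Pdk1 at -0.52 (0.281), Car9 at -0.61 (0.484) and Aldoc at -0.82 (0.536). Of the other glycolysis genes, Pfkm was then at 0.50, Eno3 at 0.40, Slc2a4 at 1.70, Pgam2 at 0.25 and Ldhb at 0.51, with adjusted p from 0.18 to 0.822. The muscle scores of the RT libraries (7.97 to 9.13) do not overlap with those of the others (1.34 to 6.31), so radiotherapy alone and muscle content cannot be told apart in that fit. In RT_FAP41BBL the muscle scores were 5.39, 5.46 and 4.61, against 4.65, 4.70 and 1.34 in control. There Egln3 kept its call with that term (-0.76, adjusted p = 0.0373), while Ak4 (-0.45, 0.051), Aldoc (-1.10, 0.0535) and Mxi1 (-0.48, 0.0757) lost theirs at nearly the same size. Within the groups, the deviations of Adm, Vldlr and Aldoa from their group means had r of 0.67, 0.61 and 0.48 with those of the muscle score over 12 libraries, and Pdk1, Car9 and Aldoc had -0.19, 0 and -0.27. The lowest were -0.57 for P4ha1, -0.48 for Hk2, -0.46 for Hk1 and -0.44 for Pfkl. The libraries share their scaling, so these values describe only.

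**Figure D4:**
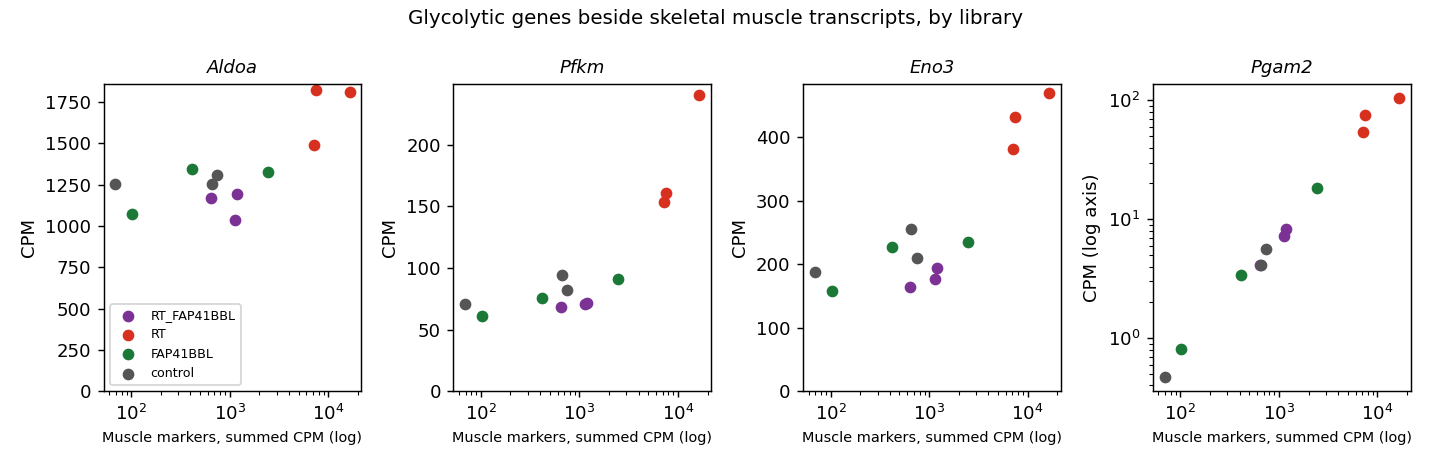
CPM of Aldoa, Pfkm, Eno3 and Pgam2 (vertical, log axis for Pgam2) against the summed CPM of 18 skeletal muscle markers (horizontal, log axis), 1 point a library coloured by group. The 3 RT libraries lie to the right at 7163 to 16490 CPM of muscle markers and are highest for all 4 genes.

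Markers of other cell types were also compared between RT_FAP41BBL and control, where 5.59% of all genes tested rose. Macrophage markers (7 genes) summed to 3739 to 4818 CPM in RT_FAP41BBL, against 2256 to 2811 CPM in control, and 5 of the 7 rose. T cell markers summed to 74.3 to 101 CPM against 41.96 to 71.5 CPM, and 2 of 7 rose. Epithelial tumour cell markers summed to 332 to 390 CPM against 407 to 499 CPM, but 0 of 6 passed and their median change was 0.19, of the opposite sign. Neutrophil markers summed to 129 to 177 CPM against 73.1 to 96.7 CPM, and 1 of 7 rose. Adipocyte markers summed to 47.7 to 206 CPM against 4.89 to 46.6 CPM, with a median change of 2.87, and 0 of 6 passed. In FAP41BBL the adipocyte markers also lay above control, at 95.0 to 186 CPM, with a median change of 2.73 and 0 of 6 past the test. Endothelial markers summed to 323 to 376 CPM against 224 to 257 CPM, and 1 of 7 rose. The part of these cell types in the falls of Aldoc, Egln3, Mxi1 and Ak4 was not tested. In RT the neutrophil markers also lay above control, at 190 to 247 CPM, with 0 of 7 past the test, and their part in the RT changes was not tested.

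Other genes of the HIF pathway, a list of 39 that were all tested, were counted in the same way. In RT_FAP41BBL against control 2 fell and 0 rose, beside 2.31% and 5.59% of all genes. In RT 3 fell and 2 rose, beside 3.05% and 6.57%. In FAP41BBL 0 passed, with 9 at an unadjusted p under 0.05 with edgeR, beside 5.17% of all genes, and 0 with DESeq2. Ddit4, an inhibitor of mTORC1 induced by hypoxia and other stresses, had 29.7, 30.8 and 28.8 CPM in RT_FAP41BBL, 44.5, 31.3 and 20.9 CPM in RT, 56.6, 35 and 41.0 CPM in FAP41BBL, and 75.4, 67.3 and 71.6 CPM in control. All 9 treated libraries lay below control, a separation not counted over all genes. The change was -1.26 ± 0.23 in RT_FAP41BBL (adjusted p = 0.00921) and -1.15 ± 0.23 in RT (0.0107). Zfp395 fell in RT_FAP41BBL (-0.40 ± 0.11, 0.0466) and in RT (-0.50 ± 0.11, 0.0149), and Kdm4b, a histone demethylase, in RT (-0.51 ± 0.10, 0.00827). The RT rises were Ppp1r3c, a glycogen-targeting phosphatase subunit (4.39 ± 0.76, 0.00759), and Pgm1, phosphoglucomutase (0.36 ± 0.09, 0.0219). With the muscle term in the fit Ppp1r3c was at 1.49 (0.152) and Pgm1 at 0.22 (0.651), and Pgm1 lost its call in 4 of 6 refits without a library (0.0345 to 0.104). Both were lower in RT_FAP41BBL than in RT (-3.52 ± 0.72 and -0.54 ± 0.09), as was Bhlhe40, a transcriptional repressor (-0.69 ± 0.18, 0.0432). Leaving out a library ended the RT_FAP41BBL call of Zfp395 in 5 of 6 refits (0.032 to 0.179), its RT call in 1 of 6 (0.0132 to 0.0635), the Bhlhe40 call in 5 of 6 (0.0166 to 0.177) and that of Ppp1r3c against RT in 4 of 6 (0.0312 to 0.132).

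Vegfa, the vascular growth factor and best known HIF target, had 118, 122 and 132 CPM in RT_FAP41BBL, 143, 139 and 134 CPM in RT, 164, 171 and 151 CPM in FAP41BBL, and 84.7, 129 and 148 CPM in control. The RT_FAP41BBL and RT libraries of Vegfa lay within the control range. All 3 FAP41BBL libraries lay above control, as for 5.7% of all genes (0.43 ± 0.16, adjusted p = 0.905). Vegfa passed in no comparison. Epas1, which encodes HIF-2 alpha and is strong in endothelium, averaged 60.1 CPM in RT_FAP41BBL, 55.7 in RT, 47.4 in FAP41BBL and 34.3 in control, and RT replicate 3 (97.0 CPM) stood apart. Its change of 0.81 in RT_FAP41BBL did not pass (adjusted p = 0.311). Arnt, the HIF partner subunit, Vhl, the ubiquitin ligase subunit that recognises the hydroxylated alpha subunit, and Hif1an, the asparagine hydroxylase FIH, lay between -0.18 and -0.03 in RT_FAP41BBL and passed nowhere with edgeR. In RT against control Hif1an was at 0.27 ± 0.09 (adjusted p = 0.0716, or 0.0304 with DESeq2), Arnt at -0.20 and Vhl at -0.18. Hif1an was also lower in RT_FAP41BBL than in RT (-0.30 ± 0.09, adjusted p = 0.0591, or 0.0123 with DESeq2). Hif3a was at 0.303 to 1.16 CPM on average in the 4 groups. Slc2a3, the glucose transporter GLUT3, stood at 11.6 CPM in RT_FAP41BBL and 7.02 CPM in RT, against 6.52 CPM in control. Its change in RT_FAP41BBL was 0.83 against control (adjusted p = 0.0517, or 0.0123 with DESeq2) and 0.72 against RT (0.0907, or 0.0386 with DESeq2).

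The members varied between libraries of a group about as much as other genes of their level. Their median within-group SD was 0.15 on the log2 scale, against 0.16 for the 10394 genes in their range of expression and 0.22 for all genes tested. The largest were 0.67 for Vldlr, 0.39 for Aldoc, 0.35 for Adm, 0.27 for Pfkfb3, 0.26 for Ankrd37 and 0.23 for Car9, and the smallest were 0.08 for Pfkp and Hif1a. The median deviation of the members from the group mean was 0.17 in RT replicate 1, 0.03 in RT replicate 2 and -0.17 in RT replicate 3, where 27 of 35 lay below the group mean. In RT_FAP41BBL replicate 1 and control replicate 1, 25 of 35 lay below it, and in RT_FAP41BBL replicate 3 and RT replicate 1, 6 of 35. RT replicate 3 also held the most muscle transcripts. Among the RT libraries it had the highest summed adipocyte (186 CPM), endothelial (391 CPM) and fibroblast (10840 CPM) markers. Its epithelial tumour cell markers had the lowest sum there (324 CPM) but the highest mean log2 CPM (3.11). The part of these cell types in its low values was not tested.

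Over the 595 pairs of members, the deviations from the group means had a median r of 0.26 across the 12 libraries, or 0.14 over the 9 libraries outside RT. The highest were Tpi1 and Gapdh 0.96, Bnip3 and Bnip3l 0.95, Pgam1 and Egln1 0.95, Aldoc and Egln3 0.93, Bnip3l and Mxi1 0.93, and Aldoc and Ankrd37 0.93. Pfkfb4 ran against several, with -0.86 to Ak4 and -0.83 to Bnip3l, and Vldlr ran against P4ha1 at -0.84. Of the 595 pairs 188 lay below 0, so the list did not vary as a single unit. The points share library, scaling and cell composition, and the values are a description.

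**Figure D5:**
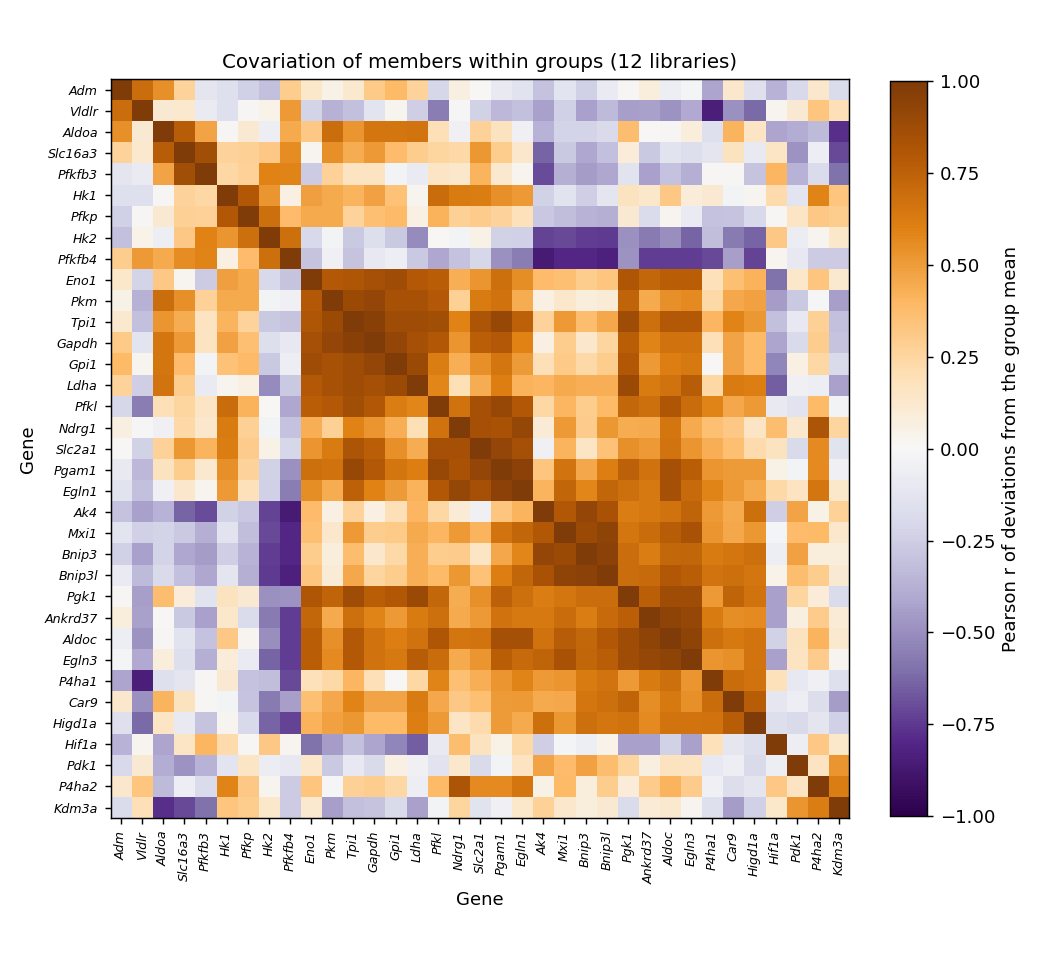
Pearson r between each pair of the 35 genes (both axes, genes ordered by likeness) for deviations of log2 CPM from the group mean over 12 libraries. Glycolytic enzymes such as Tpi1 and Gapdh (0.96) form a positive block, Bnip3, Bnip3l, Mxi1 and Ak4 form another, and Pfkfb4 is negative to Ak4 (-0.86) and Bnip3l (-0.83).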

How the data were processed

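Polyadenylated RNA was sequenced as stranded read pairs in 12 tumour libraries, per the labels' protocols. Whether each library came from a separate animal is not given. The deposited files hold raw counts, made by featureCounts 1.6.0 over exons by gene identifier with the reverse strand setting, read pairs and GENCODE M33, per the file headers. Per the submitters' processing notes, the build was GRCm39 and the tools included STAR 2.7.9a with FastQC 0.11.8, limma and edgeR. Symbols came from a GENCODE M21 table, which named 51948 identifiers (91.3%), or 99.04% or more of a library's counts. Aldoa had 2 identifiers, of which the one with the most counts was used. Gapdh, Pgk1, Ldha, Aldoa, Tpi1, Eno1 and Pkm have processed pseudogenes that can share reads, so their levels are less certain.

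Counts were fitted in R 4.3.3 with edgeR 4.0.16 (TMM, filterByExpr, robust quasi-likelihood, 17757 genes, 8 residual degrees of freedom, Benjamini-Hochberg over all genes, threshold 0.05), with 1 model of 4 groups over 12 libraries. The common biological coefficient of variation was 0.205. CPM use TMM-scaled totals, and log2 CPM a prior count of 2. No 2 libraries of a group agreed within sampling noise (chi-square per degree of freedom of at least 17.7). Per library values are given for members past the threshold, for the 6 with the largest within-group SD, and for Vegfa and the pathway genes named by p (up to 6 a list and comparison). Hk2, Pfkfb4 and Ddit4 were given per library after their values were seen. Steps were tested on simulated data. Alternatives were RLE factors, no filter, DESeq2 1.42.0, a replicate block, 2 groups only, a muscle covariate and each library left out. The members and lists were chosen with earlier results of these data known. Promoter windows are from RefSeq (GRCm38.p6), with Bnip3l and Ndrg1 not matched.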

Additional observations from a re-analysis of the deposited data

How the results depend on the processing

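None of the 34 named changes past the threshold changed direction under the alternatives run. The median of the members for the interaction, -0.05, ran from -0.12 to 0.03 when a library was left out. RT against control had 1 member higher and 3 lower. RLE factors, no low-count filter and the muscle covariate each left 0 higher, DESeq2 gave 3 higher and 8 lower, the muscle covariate 0 lower and 2 groups only 1 lower. Of all genes, 1709 passed with RLE factors, 1312 with no filter, 2507 with DESeq2, 3 with the muscle covariate and 1064 with 2 groups only. The members gained with DESeq2 were Hk2, Pfkl, Egln3, Ndrg1, Vldlr, Mxi1 and Ak4. Leaving out a library gave 0 to 1 higher and 1 to 7 lower (1 without control replicate 2, 7 without RT replicate 1). Of all genes, 805 and 1987 passed in these 2 refits. RT_FAP41BBL against control had 0 higher and 4 lower. DESeq2 gave 2 higher, 2 groups only 1 higher and 8 lower, and the muscle covariate 1 lower. Of all genes, 2341 passed with DESeq2, 3223 with 2 groups only and 790 with the muscle covariate. The members gained with DESeq2 were Pfkfb3, Pfkfb4, Pdk1 and Bnip3l. Leaving out a library gave 0 to 1 higher and 0 to 2 lower (0 without control replicate 2 or RT_FAP41BBL replicate 2, where 351 and 442 of all genes passed). RT_FAP41BBL against RT had 0 higher and 1 lower. DESeq2 gave 2 higher and the muscle covariate 0 lower, and leaving out a library gave 0 to 1 higher and 0 to 2 lower. Of all genes, 2063 passed with DESeq2, 3 with the muscle covariate and 70 to 2305 with a library left out. RT_FAP41BBL against FAP41BBL had 0 and DESeq2 gave 1 higher and 2 lower, 2 groups only 1 lower, beside 774 and 269 of all genes. DESeq2 gave 1 lower for the interaction, beside 633 of all genes. FAP41BBL against control had 0 under every alternative run, where at most 48 of all genes passed (DESeq2). The cause of these shifts was not tested, except that a fit of 2 groups or without a library holds fewer libraries. Of 34 named changes, 34 kept their call with DESeq2, 33 with RLE, 28 with the replicate block, 28 with 2 groups only, 26 without a filter and 2 with the muscle covariate. With that covariate only 3 of all genes passed in RT against control, and 3 in RT_FAP41BBL against RT.

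Not every same-number pair deviated together, so the numbers were not taken to pair the samples: of 18 pairs 5 had a correlation of deviations over 0.1, from -0.34 to 0.43, and 3 of the 5 were RT with FAP41BBL (0.31, 0.18 and 0.43). With the replicate block, RT_FAP41BBL against control and against RT each had 1 member higher (Pfkfb4), and in RT against control Hk2 and Egln3 were gained and Aldoa was lost. Libraries of a group differed by more than counting noise, so 3 libraries a group set the precision.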
